A study of Mus musculus with 10 samples.

Results

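The genes that encode the intermediate filaments of muscle cells, their linkers and the proteins of the nuclear envelope were followed in C2C12 cells after knockdown of *Fndc1*. The 10 genes were taken by their symbols, from a list drawn up with earlier results of these data known: *Des*, *Vim*, *Nes*, *Synm*, *Sync*, *Plec*, *Lmna*, *Lmnb1*, *Sun1* and *Sun2*, of 55359 genes listed. All 10 were found, and 9 reached the mean level of 0.5 FPKM (fragments scaled by transcript length and library size) required for the test across all genes. *Synm* did not reach it.

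C2C12 is a single mouse myoblast line whose cells fuse into myotubes when the serum is lowered. In one group of 5 libraries (si-Control 1 to 5) the cells had received a control siRNA. In the other 5 (si-*Fndc1* 1 to 5) they had received an siRNA against *Fndc1*, a gene for a protein with fibronectin type III domains. The siRNA was used at 100 nM, and the cells of both groups were labelled myoblast and collected after 4 days of differentiation. The labels number the libraries but do not say whether they came from separate cultures, so that p-values measure the spread between these libraries, which may be technical.

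Intermediate filaments are rope-like polymers that hold the contractile apparatus, the nucleus and the cell surface in register. Desmin is the filament protein of differentiated muscle, whereas vimentin and nestin are typical of myoblasts and regenerating fibres, and plectin ties the filaments to other structures. The nuclear lamins line the inner face of the nuclear envelope, and the SUN proteins reach from the lamina to the nesprins of the outer membrane, forming the LINC complex that couples the nucleus to the cytoskeleton.

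The total count per library was 56332844 to 75995168. *Fndc1* itself ranged from 24.7 to 29.6 FPKM in si-Control (mean 27.8 ± 2.04, SD, n = 5) and from 18.7 to 23.5 in si-*Fndc1* (20.9 ± 1.70, n = 5), without overlap. Summed FPKM of 16 myotube markers lay between 4155 and 4726 in the controls and between 4003 and 4803 in si-*Fndc1*, and that of 11 cycling cell markers between 56.2 and 60.8 and between 53.4 and 61.1. As a share of all FPKM, the myotube markers held 1.3% to 1.55% in the controls and 1.16% to 1.47% in si-*Fndc1*. The cycling cell markers held 0.0185% to 0.0197% in the controls and 0.0155% to 0.0182% in si-*Fndc1*, without overlap. Of the myotube markers 3 were called higher and 1 lower, and of the cycling cell markers 2 higher and 0 lower. Among all tested genes 17.3% were called higher and 17.2% lower. Of the myoblast markers other than *Des*, *Myod1*, a myogenic transcription factor, rose from 41.9 to 46.7 FPKM without overlap (log2 fold change 0.16, edgeR adjusted p = 0.0162). *Myf5* and *Pax7*, also myogenic transcription factors, were at 0.12 and -0.19 and did not pass the test (edgeR adjusted p = 0.181 and 0.301). After the correction for GC content described with the results, *Myod1* was at 0.25 and *Myf5* at -0.21, and both passed (edgeR adjusted p = 0.00118 and 0.0189). The part of these markers in the results was not tested. Of 14 hepatocyte markers, 13 were tested and 13 were called higher in si-*Fndc1* by edgeR's test, with a summed level of 0.182 to 6.86 FPKM in controls and 51.5 to 185.4 after knockdown, which is 0.0149% to 0.0569% of all FPKM there, and their part in the results was not tested. The marker lists of adipocytes, endothelium, leukocytes and epithelium each summed to at most 0.0516, 0.292, 1.17 and 4.35 FPKM in any library, with no count in any library for 4 of 5, 1 of 4, 3 of 4 and 2 of 4 of them.

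In si-*Fndc1*, 1 of the 9 tested genes was higher, *Vim*, and 5 were lower, *Nes*, *Sync*, *Lmna*, *Sun1* and *Sun2*. *Des*, *Plec* and *Lmnb1* did not pass the test. These calls are from edgeR's quasi-likelihood test, with p-values adjusted by Benjamini-Hochberg over all 13548 tested genes and a threshold of 0.05. Of all tested genes, 34.4% were called, 17.3% higher and 17.2% lower, with a median log2 fold change of 0.00 against -0.22 for the 9 genes. All 9 changes were below 1 in absolute size on the log2 scale. The count of lower genes was 3 in place of 5 without si-Control 5 or without si-*Fndc1* 3. These are bulk samples, in which fewer cells of a type and less RNA per cell cannot be told apart.

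GC-rich transcripts were, on median, lower in every si-*Fndc1* library than in any si-Control library. Over the 1119 tested genes with the highest GC content, at or above 58.3%, the median deviation from each gene's mean over the libraries lay between 0.09 and 0.14 (log2) in the controls and between -0.14 and -0.08 after knockdown. *Plec* (61.27% GC) and *Lmna* (59.25%) are above that limit, and *Sun2* (57.99%) is just under it. For the tenth of longest genes (11009 bases or more) the median deviation was -0.015 to 0.084 in the controls. It was -0.072 to 0.029 after knockdown, so that the groups overlapped. Fold changes are therefore given a second time, for genes with a GC value, from a fit on 11185 genes. In it the trend of counts with GC content and transcript length was removed in each library. GC content and length were removed together, so that the part of each was not separated. In that fit 22.5% of genes were called, 12.2% higher and 10.3% lower, whereas 37.9% of these genes were called from uncorrected counts. Of the 9 genes, *Vim* and *Des* were then higher and *Nes* and *Sun1* lower, and the median log2 fold change of the 9 was -0.05 against 0.01 for all genes of that fit. *Fndc1* itself was at -0.40 on the log2 fold change scale before and -0.21 after the correction, and passed the test in both fits (edgeR adjusted p = 0.000934 and 0.0128). Whether the GC trend arose in the cells or in the libraries cannot be told apart, because it follows the groups.

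**Figure D1:**
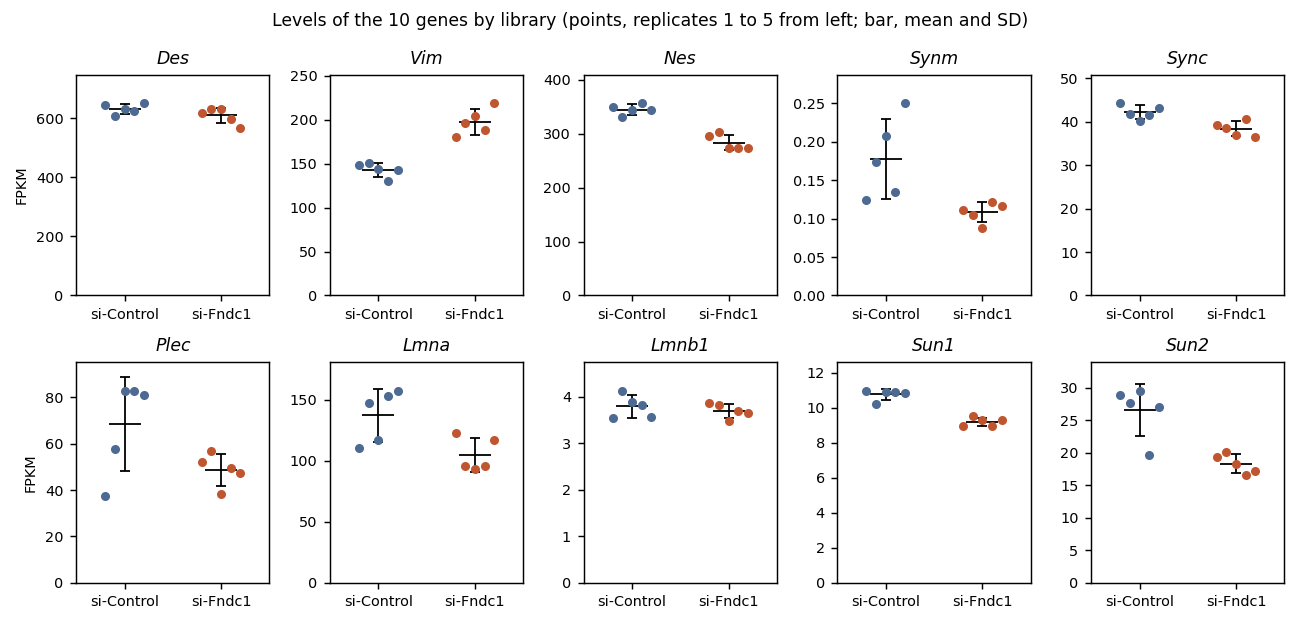
FPKM of each of the 10 genes (y axis, linear and starting at 0, with its own range for each gene) in 5 si-Control and 5 si-Fndc1 libraries. Points are libraries in the order of their replicate numbers, and the bars are the mean and SD. The groups are separate for *Vim*, *Nes*, *Synm* and *Sun1*, and *Plec* is spread from 37.4 to 82.85 FPKM in si-Control.

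Among the si-Control libraries the filament genes *Des*, *Nes* and *Vim* held the highest levels, with means of 632, 345 and 143 FPKM. *Lmna* followed at 137, and the ranges of *Vim* and *Lmna* overlapped. *Plec* (68.3 FPKM) and *Sync* (42.2) came next and also overlapped in range. Below them stood *Sun2* (26.6), *Sun1* (10.8), *Lmnb1* (3.79) and *Synm* (0.178), each with a range apart from that of its neighbour. In si-*Fndc1* the order was the same, *Vim* and *Lmna* no longer overlapped, and *Plec* and *Sync* still did. The FPKM of the 10 genes added up to between 1378 and 1460 in the control libraries and between 1275 and 1354 after knockdown.

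Promoter sequence is shown for the gene called higher, *Vim*, and for its filament partners *Des* and *Nes*, so that the stretches can be compared. Each runs 5′ to 3′ on the strand of the gene and covers the 120 bases before the RefSeq transcription start in GRCm38.p6, at chr2:13574191-13574310 (+) for *Vim*, chr3:87970973-87971092 (+) for *Nes* and chr1:75360172-75360291 (+) for *Des*. Capitals mark CANNTG (E-box), GGGCGG (GC box), CCAAT and TATAAA on either strand.
Vim: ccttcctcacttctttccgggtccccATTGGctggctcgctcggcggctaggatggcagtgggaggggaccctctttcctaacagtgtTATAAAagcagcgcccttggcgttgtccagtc
Nes: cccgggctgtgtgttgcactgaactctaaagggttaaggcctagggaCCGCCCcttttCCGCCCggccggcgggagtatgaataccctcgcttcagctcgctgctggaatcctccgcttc
Des: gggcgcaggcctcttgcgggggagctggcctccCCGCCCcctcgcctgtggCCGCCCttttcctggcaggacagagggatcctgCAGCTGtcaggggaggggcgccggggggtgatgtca

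The *Vim* stretch holds 1 TATAAA and 1 CCAAT, read on the other strand as ATTGG. Those of *Nes* and *Des* hold 2 GC boxes each, and that of *Des* also 1 E-box of the CAGCTG form. Over the 250 bases before the start, read on both strands, 8 of the 10 genes were searched. Each was searched only at the first start listed for it, whereas the shares over all promoters count every listed promoter, whatever its gene or expression. TATAAA was found for *Vim* alone among the 8, and in 12.4% of all 32851 RefSeq promoters of that length. The GC box was found for 6 of the 8 (*Des*, *Nes*, *Lmna*, *Sync*, *Sun1* and *Sun2*), against 32.7% of all promoters, CCAAT for 4 (*Vim*, *Sun1*, *Synm* and *Sun2*), against 33.8%, and CANNTG for 3 (*Des*, *Sync* and *Synm*), against 66.2%. CAGCTG was found for *Des* alone (13% of all promoters), and the AP-1 motif TGANTCA for 0 of the 8 (6.75%). A match describes the letters only, and none of these counts says that a factor binds.

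*Des* encodes desmin, the main muscle intermediate filament protein, and lies at chromosome 1, 75336973 to 75345223 (+), in the coordinates of the deposited table, which names no genome build. Its FPKM was 645, 607, 631, 625 and 650.3 in si-Control 1 to 5, and 618, 631, 631, 598.5 and 568.5 in si-*Fndc1* 1 to 5. The groups overlapped, although si-*Fndc1* 4 and 5 were below every si-Control library. The means were 632 ± 17.01 and 609 ± 26.4 FPKM (SD, n = 5 each). On the log2 scale the change was -0.04 ± 0.04 (SE, edgeR adjusted p = 0.395). With the GC and length correction the value turned to 0.11 and passed the test (edgeR adjusted p = 0.0248), so that no direction can be given for *Des*.

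*Vim* encodes vimentin, the filament protein of mesenchymal cells and myoblasts, and lies at chromosome 2, 13578738 to 13587637 (+). Its FPKM was 148, 151, 143.5, 130.3 and 143 in si-Control 1 to 5. The si-*Fndc1* libraries 1 to 5 held 181, 196, 204, 189 and 219. Every si-*Fndc1* library was above every si-Control library, and the highest was si-*Fndc1* 5. *Vim* rose from 143 ± 7.89 to 198 ± 14.6 FPKM (SD, n = 5 each), a ratio of 1.38. The log2 fold change was 0.47 ± 0.06 (SE), with an edgeR adjusted p of 0.000133, and a two-sided exact permutation test on FPKM gave 0.00794, the smallest p that 5 against 5 libraries allow. *Vim* was called higher in 21 of 21 alternative fits, with log2 fold changes of 0.44 to 0.59, the highest with the GC and length correction.

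*Nes* encodes nestin, a filament protein of muscle and neural progenitors that polymerises with vimentin or desmin, and lies at chromosome 3, 87878385 to 87887758 (+). Its FPKM was 349, 330.3, 345, 356 and 344 in si-Control 1 to 5. With the *Fndc1* siRNA it was 296, 303, 274, 273 and 273 in libraries 1 to 5. The groups did not overlap. *Nes* fell from 345 ± 9.55 to 284 ± 14.5 FPKM (SD, n = 5 each), which is 17.8% lower. Its log2 fold change was -0.27 ± 0.04 (SE, edgeR adjusted p = 0.000351). After the GC and length correction it was -0.09 and still passed the test (edgeR adjusted p = 0.0156).

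*Synm* encodes synemin, a large filament protein that polymerises with desmin or vimentin and anchors them at costameres, and lies at chromosome 7, 67379908 to 67409441 (-). It was the least abundant of the 10 genes, at 84 to 148 reads per control library and 55 to 78 per si-*Fndc1* library. Its FPKM was 0.125, 0.173, 0.208, 0.134 and 0.2501 in si-Control 1 to 5, and 0.111, 0.104, 0.0881, 0.122 and 0.117 in si-*Fndc1* 1 to 5. Every si-*Fndc1* library was below every si-Control library, though si-*Fndc1* 4 and si-Control 1 were nearly level. The two-sided exact permutation test on FPKM gave p = 0.00794. In the fit without a filter on low levels the log2 fold change was -0.70 and did not pass the threshold (edgeR adjusted p = 0.0541). *Ttc23*, on the opposite strand, covers all of *Synm* (29534 bases) with 711 to 1159 reads per library, and since it is not stated whether the counting used the strand, reads of the pair may not be separable.

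*Sync* encodes syncoilin, a filament protein that binds desmin and α-dystrobrevin at the muscle cell surface, and lies at chromosome 4, 129181410 to 129202352 (+). Its FPKM was 44.25, 41.9, 40.1, 41.7 and 43.2 in si-Control 1 to 5. After knockdown it was 39.2, 38.7, 37.1, 40.7 and 36.5 in si-*Fndc1* 1 to 5. Of the si-*Fndc1* libraries 4 were below every si-Control library, and si-*Fndc1* 4 was within the si-Control range. From a mean of 42.2 ± 1.58 FPKM (SD, n = 5) *Sync* fell to 38.4 ± 1.70 (n = 5). Its log2 fold change was -0.13 ± 0.04 (SE, edgeR adjusted p = 0.0296). The call was lost with the GC and length correction (log2 fold change -0.05, edgeR adjusted p = 0.435). It was also lost without si-Control 1 or 5 or without si-*Fndc1* 3 or 5, with edgeR adjusted p of 0.0627 to 0.0694. *Rbbp4* on the opposite strand, with 17235 to 23164 reads per library, overlaps *Sync* by 1460 bases and was higher in si-*Fndc1* (log2 fold change 0.25, edgeR adjusted p = 0.000111).

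*Plec* encodes plectin, the cytolinker that binds desmin and vimentin filaments to Z-discs, costameres, mitochondria and the nuclear surface, and lies at chromosome 15, 76055174 to 76116774 (-). Its FPKM was 37.4, 57.8, 82.8, 82.85 and 80.9 in si-Control 1 to 5. The si-*Fndc1* libraries 1 to 5 held 52.0, 56.7, 38.1, 49.6 and 47.5. The lowest of all 10 libraries was si-Control 1, and the groups overlapped, although si-Control 2 to 5 were all above every si-*Fndc1* library. The means were 68.3 ± 20.3 and 48.8 ± 6.88 FPKM (SD, n = 5 each), and the coefficient of variation was 29.7% in si-Control.

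The log2 fold change of *Plec*, -0.48 ± 0.20 (SE), did not pass the test (edgeR adjusted p = 0.0898). Without si-Control 1 it was -0.63 and passed (edgeR adjusted p = 0.00497), so that 1 library decided the call. *Plec* stood at the 97.4th percentile of GC content and the 98.9th of length among tested genes, and with the GC and length correction its log2 fold change was 0.01 (edgeR adjusted p = 0.981). *Parp10*, on the same strand, overlaps *Plec* by 1401 bases with 655 to 1087 reads per library.

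**Figure D2:**
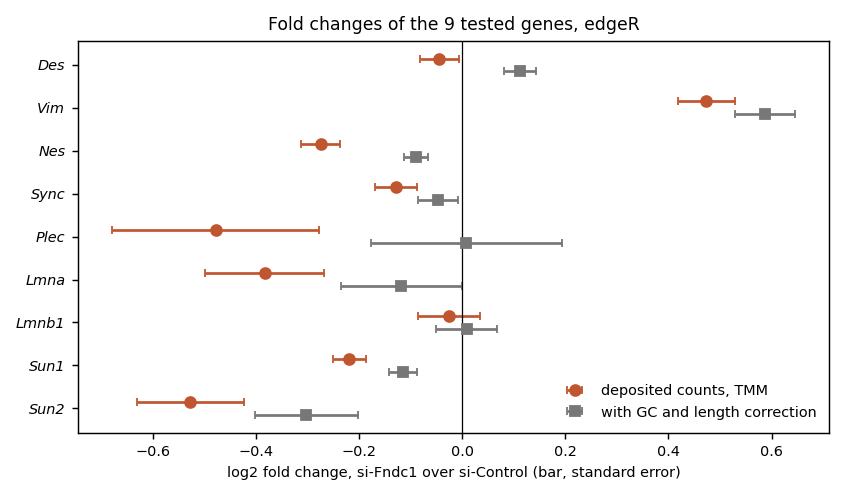
Log2 fold change of si-Fndc1 over si-Control (x axis) for the 9 tested genes, from the deposited counts (circles) and with the GC and length correction (squares). Bars are the standard error. *Vim* lies to the right of 0 in both fits, whereas the value of *Plec* moves from -0.48 to 0.01 and that of *Des* from -0.04 to 0.11.

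Ratios of FPKM within a library do not depend on the scaling between libraries, and 6 ratios were tested by two-sided exact permutation tests with Benjamini-Hochberg adjustment over the 6. They can still carry the trend with GC content and length where the 2 genes differ in these, and no ratio was corrected for it. GC content was 56.47% for *Des*, 53.94% for *Vim* and 55.53% for *Nes*. It was 59.25% for *Lmna* and 53.29% for *Lmnb1*, and 57.99% for *Sun2* and 51.4% for *Sun1*. Length was 4174 bases for *Des*, 5274 for *Vim*, 7134 for *Nes* and 8880 for *Synm*. *Lmna* had 6491 bases and *Lmnb1* 3298, and *Sun2* had 6029 and *Sun1* 8454. The *Des*/*Vim* ratio, muscle over mesenchymal filament, was 4.36, 4.03, 4.40, 4.799 and 4.55 in si-Control 1 to 5 and 3.42, 3.21, 3.09, 3.17 and 2.60 in si-*Fndc1* 1 to 5. The groups were separate, with means of 4.43 ± 0.283 and 3.10 ± 0.304 (SD, n = 5 each; exact permutation p = 0.00794, adjusted 0.0159). The *Nes*/*Vim* ratio moved the most, from 2.42 ± 0.198 to 1.44 ± 0.155 (n = 5 each), or -0.75 on the log2 scale, with the same exact p and no overlap. *Nes* was also lower relative to *Des*, at 0.546 ± 0.0149 and 0.466 ± 0.0205 (n = 5 each), again with no overlap and the same exact p. All 3 ratios were thus lower in every si-*Fndc1* library than in any si-Control library. For *Nes*/*Vim* this was fixed in advance, since *Nes* was lower and *Vim* higher in every si-*Fndc1* library. *Nes*/*Vim* is also the product of *Nes*/*Des* and *Des*/*Vim*, so that the 3 ratios are not independent findings. The adjusted p of 0.0159 rests on all 3 sharing the smallest exact permutation p.

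The *Synm*/*Des* ratio lay between 0.000193 and 0.000385 in the controls and between 0.00014 and 0.000205 after knockdown, with overlap. Its log2 difference of -0.62 had an exact permutation p of 0.0317 (adjusted 0.0475), but with 1 added to each FPKM the difference was -0.03 (exact p = 0.46), since *Synm* lies far below 1 FPKM. The p was 0.0635 without si-Control 2, 3 or 5 or without si-*Fndc1* 1, 2 or 3.

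**Figure D3:**
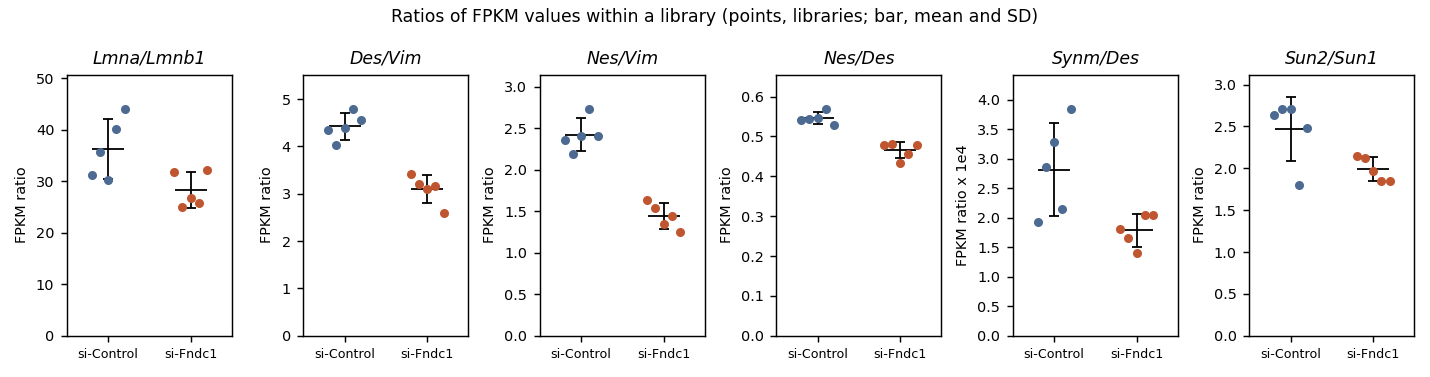
Ratio of the FPKM of 2 genes within each library (y axis, starting at 0), for 6 pairs of genes in 5 si-Control and 5 si-Fndc1 libraries. Points are libraries, bars are the mean and SD, and the *Synm*/*Des* axis is scaled up as its label states. The groups are separate for *Des*/*Vim*, *Nes*/*Vim* and *Nes*/*Des*, and si-Control 4 is the low point of *Sun2*/*Sun1* at 1.80.

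*Lmna* encodes the A-type lamins A and C, which are splice forms of 1 gene and cannot be separated in a count per gene, and lies at chromosome 3, 88387454 to 88410642 (-). Its FPKM was 111, 148, 117, 153 and 157 in si-Control 1 to 5. With the *Fndc1* siRNA it was 123, 95.5, 93.0, 95.3 and 117 in libraries 1 to 5. The groups overlapped, since si-Control 1 and 3 lay among si-*Fndc1* values, and 3 si-*Fndc1* libraries were below every si-Control library. The mean of *Lmna* fell from 137 ± 21.7 FPKM (SD, n = 5) to 105 ± 14.1 (n = 5), or -0.38 ± 0.12 on the log2 scale (SE, edgeR adjusted p = 0.0252). Corrected for GC and length, the log2 fold change was -0.12 and the call was lost (edgeR adjusted p = 0.52). Without si-Control 2, 4 or 5, or without si-*Fndc1* 2, 3 or 4, it was also lost, with edgeR adjusted p of 0.0522 to 0.0614.

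*Lmnb1* encodes lamin B1, a B-type lamin that is abundant in cycling cells, and lies at chromosome 18, 56840885 to 56886496 (+). Its FPKM was 3.54, 4.13, 3.87, 3.82 and 3.57 in si-Control 1 to 5. After knockdown it was 3.85, 3.83, 3.47, 3.69 and 3.64 in si-*Fndc1* 1 to 5. The groups lay over each other, with means of 3.79 ± 0.241 and 3.70 ± 0.152 FPKM (SD, n = 5 each). The log2 fold change was -0.03 ± 0.06 (SE, edgeR adjusted p = 0.774), and 0.01 when corrected for GC and length, so that no direction can be given.

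The *Lmna*/*Lmnb1* ratio, A-type over B-type lamin, was 31.3, 35.8, 30.25, 40.2 and 44.1 in si-Control 1 to 5 and 31.9, 24.98, 26.8, 25.9 and 32.1 in si-*Fndc1* 1 to 5. The groups overlapped through si-Control 1 and 3 and si-*Fndc1* 1 and 5. The means were 36.3 ± 5.88 and 28.3 ± 3.43 (SD, n = 5 each), with an exact permutation p of 0.0476 that was 0.0556 after adjustment over the 6 ratios. Without si-Control 2, 4 or 5 or without si-*Fndc1* 2, 3 or 4 the exact p was 0.0952.

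*Sun2* and *Sun1* encode the SUN-domain proteins of the inner nuclear membrane, the inner members of the LINC complex. The promoter stretch of *Sun2* is shown because *Sun2* had the largest absolute fold change of the 9 tested genes in the uncorrected fit of all 10 libraries (*Vim* had it with the correction) and the most GC boxes among the 8 promoters searched, 4 in 250 bases. It covers the 120 bases before the RefSeq start at chr15:79742537-79742656 (-) in GRCm38.p6, with the same motifs in capitals, of which the first is cut by the edge.
Sun2: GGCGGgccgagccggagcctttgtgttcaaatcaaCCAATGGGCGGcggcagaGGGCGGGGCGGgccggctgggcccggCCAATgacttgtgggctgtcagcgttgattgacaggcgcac

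The stretch holds 3 whole GC boxes, 2 of them sharing a base, and 2 CCAAT.

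*Sun2* lies at chromosome 15, 79608271 to 79626735 (-) in the deposited table. Its FPKM was 28.9, 27.7, 29.5, 19.6 and 27.0 in si-Control 1 to 5. The si-*Fndc1* libraries 1 to 5 held 19.3, 20.1, 18.3, 16.6 and 17.2. Of the si-Control libraries 4 were above every si-*Fndc1* library, and si-Control 4 lay within their range. *Sun2* fell from 26.6 ± 3.99 to 18.3 ± 1.45 FPKM (SD, n = 5 each), which is 31% lower. The log2 fold change was -0.53 ± 0.10 (SE, edgeR adjusted p = 0.00266), and -0.62 without si-Control 4. Corrected for GC and length it was -0.30 and just missed the threshold (edgeR adjusted p = 0.0523).

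*Sun1* lies at chromosome 5, 139186392 to 139235595 (+). Its FPKM was 10.98, 10.2, 10.9, 10.9 and 10.86 in si-Control 1 to 5. With the *Fndc1* siRNA it was 8.97, 9.504, 9.29, 8.95 and 9.30 in libraries 1 to 5. Every si-*Fndc1* library was below every si-Control library. *Sun1* fell from 10.8 ± 0.320 to 9.20 ± 0.236 FPKM (SD, n = 5 each), which is 14.6% lower and had the smallest SE of the 9 genes (log2 fold change -0.22 ± 0.03, edgeR adjusted p = 0.000473). Corrected for GC and length it was -0.11 and still passed (edgeR adjusted p = 0.0126).

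The *Sun2*/*Sun1* ratio was 2.63, 2.71, 2.71, 1.80 and 2.48 in si-Control 1 to 5 and 2.15, 2.12, 1.97, 1.85 and 1.85 in si-*Fndc1* 1 to 5. Only si-Control 4 lay outside the order of the groups, below all 5 si-*Fndc1* libraries. The log2 difference of -0.30 had an exact permutation p of 0.0556. Without si-Control 4 it was -0.41 with an exact permutation p of 0.0159, so that this comparison depended on 1 library. The ratio was not corrected for GC content or length, in both of which the 2 genes differ. With the GC and length correction the log2 fold changes were -0.30 for *Sun2* and -0.11 for *Sun1*.

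**Figure D4:**
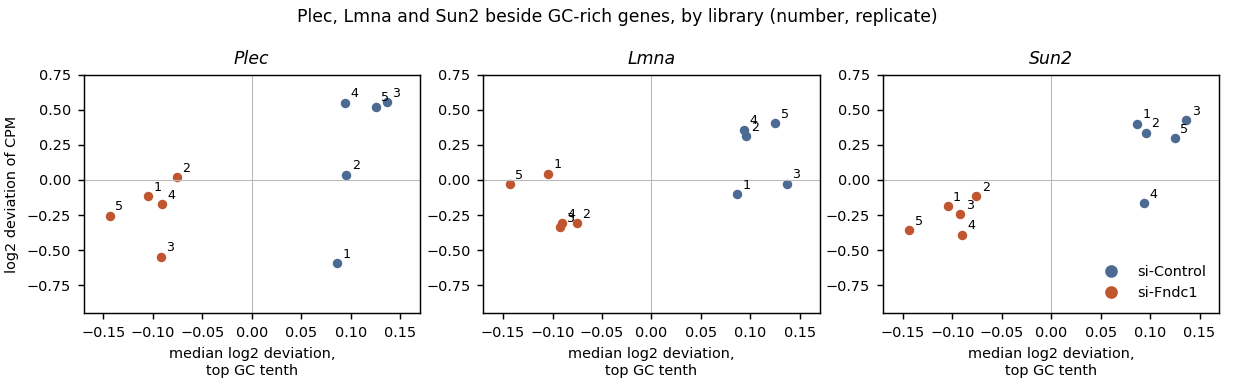
Log2 deviation of the level (CPM, counts scaled by library size) of *Plec*, *Lmna* and *Sun2* from their mean over the 10 libraries (y axis) against the median log2 deviation of the 1119 most GC-rich genes (x axis). Points are libraries with their replicate number. The si-Control libraries lie at 0.09 to 0.14 on the x axis and the si-Fndc1 libraries at -0.14 to -0.08. Among the si-Control libraries, si-Control 1 is lowest for *Plec* and si-Control 4 for *Sun2*.

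Non-overlapping FPKM, a reading without a fit, held for 4 of the 10 genes. FPKM still rests on the scaling between libraries and was not corrected for the trend with GC content and length. *Nes*, *Synm* and *Sun1* were lower and *Vim* was higher in every si-*Fndc1* library. Without *Synm*, which was below the filter, they were 3 of the 9 tested genes. Among all tested genes, 25.1% did not overlap, 13.0% lower and 12.1% higher.

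The partners of these genes were read from 5 lists. Of 6 LINC partners listed, the 3 tested were nesprins of the outer nuclear membrane, and 3 were lower, where 17.2% of all tested genes were. With the GC and length correction 1 of the 2 that have a GC value was lower, where 10.3% of all genes of that fit were. *Syne1*, which encodes a nesprin that binds actin, fell from 2.42 to 1.95 FPKM (log2 fold change -0.30, edgeR adjusted p = 0.000936). *Syne2*, for the other actin-binding nesprin, fell from 1.004 to 0.775 FPKM (-0.37, edgeR adjusted p = 0.0011). *Syne3*, for the nesprin that binds plectin, fell from 3.34 to 2.21 FPKM (-0.59, edgeR adjusted p = 0.0014). After the same correction *Syne3* was at -0.43 and still passed, *Syne2* was at -0.09 (edgeR adjusted p = 0.263), and *Syne1* had no GC value.

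Of 19 other genes listed under lamina and inner nuclear membrane, all tested, 1 was higher and 4 were lower, with a median log2 fold change of -0.15. The list is wider than its name, since it also holds *Tor1a*, a gene of the nuclear envelope lumen. Among all tested genes 17.3% were higher and 17.2% lower. With the GC and length correction 2 of the 19 were higher and 6 lower, against 12.2% and 10.3% of all genes of that fit. The higher one in the uncorrected fit was *Tor1aip1*, which encodes LAP1, a lamin-binding membrane protein that activates torsins. Its FPKM was 6.14 to 6.63 in si-Control, and 13.1, 16.3, 16.03, 15.8 and 5.95 in si-*Fndc1* 1 to 5. Of the si-*Fndc1* libraries 4 were far above every si-Control library, and si-*Fndc1* 5 was below every control. The log2 fold change was 1.08 (edgeR adjusted p = 0.00378), and 1.05 after the correction. Within si-*Fndc1* the summed hepatocyte markers were also lowest in si-*Fndc1* 5, at 51.5 FPKM against 106.8 to 185.4 in the other 4, and the part of either in the other was not tested.

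*Tor1a*, for torsin A, an ATPase of the nuclear envelope lumen, fell from 14.1 to 11.7 FPKM (log2 fold change -0.26, edgeR adjusted p = 0.00406), and was at -0.29 after the correction. *Lbr*, for the lamin B receptor, fell from 7.01 to 5.99 FPKM (-0.22, edgeR adjusted p = 0.00796), and was at -0.34 after it.

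Among 12 tested plakins, filament linkers and chaperones, 1 was higher and 4 were lower, against 17.3% and 17.2% of all tested genes. With the GC and length correction 4 were higher and 1 lower, against 12.2% and 10.3% of all genes of that fit. *Cryab*, for αB-crystallin, a small heat shock protein that chaperones desmin, rose from 81.2 ± 2.51 FPKM to 105 ± 5.52 (SD, 5 libraries each), a log2 fold change of 0.38 (edgeR adjusted p = 9.1e-05), and stood at 0.30 after the correction. *Dst*, for the plakin dystonin, fell from 24.3 to 17.96 FPKM (-0.43, edgeR adjusted p = 0.000328), but was at -0.07 after the correction (adjusted p = 0.167). *Flnc*, for filamin C, an actin crosslinker of Z-discs, fell from 83.8 to 62.7 FPKM (-0.41, edgeR adjusted p = 0.00123), but was at -0.10 after it (adjusted p = 0.159). Of this list, as of the 9 genes, the split between higher and lower therefore depended on the correction.

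Of 17 other intermediate filament genes, mostly keratins and neurofilaments, 3 were expressed enough to be tested. The keratin *Krt80* fell from 20.1 ± 1.36 FPKM to 15.5 ± 0.592 (SD, 5 libraries each), a log2 fold change of -0.37 (edgeR adjusted p = 0.000186), and was at -0.25 after the correction. *Krt14* and *Krt19*, for keratins of epithelia, were at -0.13 and 0.02 on the log2 fold change scale and did not pass the test (edgeR adjusted p = 0.529 and 0.912), and were at -0.09 and 0.06 after the correction (edgeR adjusted p = 0.687 and 0.662). Of 6 lamin processing genes 1 was higher and 2 were lower, against 17.3% and 17.2% of all tested genes. *Icmt*, for the enzyme that methylates prenylated proteins such as lamins, fell from 21.5 to 18.5 FPKM (log2 fold change -0.21, edgeR adjusted p = 0.000346), and was at -0.09 after the correction (edgeR adjusted p = 0.0382). *Narf*, for a protein that binds prelamin A, was at -0.11 both before and after it (edgeR adjusted p = 0.0103 and 0.0211). *Zmpste24*, for the protease that matures prelamin A, was at 0.11 (edgeR adjusted p = 0.0195), but at -0.02 after the correction (adjusted p = 0.635).

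**Figure D5:**
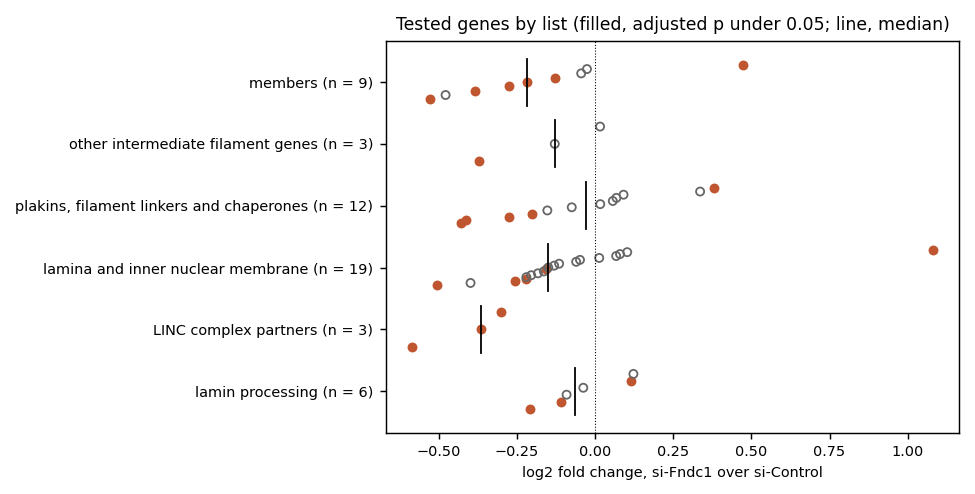
Log2 fold change of si-Fndc1 over si-Control (x axis) for the tested genes of each list (y axis), with the 9 tested filament and envelope genes in the first row. Filled points passed the edgeR threshold of 0.05, open points did not, and the vertical lines are medians. The 3 LINC partners are all filled and below 0, and the far right point of the lamina row is *Tor1aip1* at 1.08.

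The genes whose pattern over the 10 libraries was most like that of *Vim* and of *Sun2* were found by the root mean square difference of log2(FPKM + 0.1), each gene centred on its mean, among 6916 genes with a mean of at least 5 FPKM. Nearest to *Vim* were *Aprt*, for adenine phosphoribosyltransferase, at 0.060 (18.8 to 25.6 FPKM), *mt-Rnr2*, for the large mitochondrial ribosomal RNA, at 0.061 (298 to 421 FPKM), and *Uqcc2*, for an assembly factor of respiratory complex III, at 0.068 (80.4 to 109.5 FPKM). The median difference from *Vim* over all these genes was 0.280. Nearest to *Sun2* were *Gm2792* at 0.113, *Ajuba*, for a LIM-domain protein, at 0.131 (22.2 to 16.4 FPKM) and *Gatad2a*, for a subunit of the NuRD chromatin complex, at 0.137 (18.8 to 14.3 FPKM), with a median of 0.333 over all genes.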

How the data were processed

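RNA-sequencing of C2C12 cells was analysed in 5 si-Control and 5 si-*Fndc1* libraries, grouped by their labels. The authors deposited read counts per gene without normalization. The table deposited also holds 1 FPKM value per gene and library, set to 0.0001 where no read was counted. The paper's methods name TopHat, mm10, htseq-count and 4 libraries, the text of the series names STAR, mm9 and another time point, and the submitters' processing notes name cutadapt 1.9, FastQC and GRCm39. Which of these made the table, and whether counting used the strand, is not given in the sources used here. Coordinates were printed as listed, and 0 columns of values were left without a sample.

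The quasi-likelihood test of edgeR 4.0.16 (R 4.3.3) was applied to TMM-normalized counts of genes that averaged 0.5 FPKM or more, with Benjamini-Hochberg adjustment. DESeq2 1.42.0, limma 3.58.1 on log2(FPKM + 1) and log2(FPKM + 0.1), other scalings and filters, a replicate block and leaving out each library were alternatives. For the GC and length correction, GC content came from transcripts of NCBIM37 matched by gene identifier and length from the ratio of count and FPKM. It was fitted in each library by splines with Huber regression on the 82.6% of tested genes with a GC value, and used as an offset. Single genes and ratios were compared by exact permutation tests in Python 3.11.15 (scipy 1.17.1). SE is the absolute log2 fold change over the square root of F.

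The 10 genes and the lists were chosen with earlier results of these data known. Named genes are the 10, the 3 tested genes of each of the 5 partner lists with the smallest p, the 3 nearest in pattern to the called filament gene and the called envelope gene with the largest change, and overlapping genes. *Nemp1* and *Tor1aip2* were named besides, for single libraries that stood apart. Promoters came from RefSeq (GRCm38.p6), whose coordinates are not those of the table. That of *Lmnb1* was not used here, and *Plec* had no match.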

Additional observations from a re-analysis of the deposited data

Results flagged for a closer look

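A library far from the other 4 of its group was found in 3 of 32 groups of 5 values examined, where chance gives about 1 in 20. *Sun1* was lowest in si-Control 2 at 10.2 FPKM, with the other si-Control libraries at 10.86 to 10.98. *Sun2* was lowest in si-Control 4 at 19.6 FPKM, and the *Sun2*/*Sun1* ratio, which holds the same *Sun2* value, was also lowest there at 1.80. The ratios share their values with the genes, so that the groups examined are not independent and no excess over chance can be read from the count. Without si-Control 2 the log2 fold change of *Sun1* was -0.24, and without si-Control 4 that of *Sun2* was -0.62. Both were called by edgeR's quasi-likelihood test (adjusted p = 0.000288 and 0.000139). Each library left out was the lowest control of a gene lower in si-*Fndc1*, so that the difference in means could only widen, and the calls were not put to a test by this.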

How the results depend on the processing

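The 6 calls among the 9 genes were *Vim* higher and 5 lower. The GC and length correction gave 2 higher and 2 lower, and 2517 called genes in place of 4663. With that correction and a replicate block there were 1 lower gene, *Sun2* (log2 fold change -0.29, edgeR adjusted p = 0.0367), and 1648 called genes, while *Nes*, *Sun1* and *Des* missed the threshold (edgeR adjusted p = 0.061, 0.0621 and 0.0892). The corrected log2 fold changes reversed sign for *Des* (0.11, and 0.11 with the block), *Plec* (0.0078 and 0.053) and *Lmnb1* (0.0083 and 0.0088). *Lmnb1* ranged from -0.0481 to 0.0055 when each library was left out, positive without si-Control 2. The cause was not tested. Leaving out each library in turn gave 3 to 5 lower genes and 4000 to 4627 called genes. The log2 difference then ranged from -0.41 to -0.28 for *Lmna*/*Lmnb1*, from -0.75 to -0.50 for *Synm*/*Des* and from -0.41 to -0.26 for *Sun2*/*Sun1*. For *Synm*/*Des* it was -0.034 with 1 added to each FPKM. *Des*/*Vim*, *Nes*/*Vim* and *Nes*/*Des* kept their direction and their side of the threshold in every alternative tested on ratios. These were 1 added to each FPKM, CPM in place of FPKM, and leaving out each library. No ratio was computed with the GC and length correction, so that its effect on the ratios was not tested.

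Replicate numbers are shared by the groups, but same-numbered libraries did not deviate together (correlations of -0.04 to 0.05, with the own number highest for 1 of 5). The main fit therefore used no pairing, although the labels do not say whether the numbers pair the samples. A replicate block gave 3572 called genes and 3 lower genes among the 9, with *Sync* and *Lmna* not called (edgeR adjusted p = 0.0715 and 0.0519). For ratios, 5 pairs allow no sign-flip p below 0.0625, and none could be called. Without a filter 4164 of 28952 genes were called, and at a mean FPKM of at least 5, which leaves out *Lmnb1*, 3431 of 6924. Upper quartile scaling and no filter each left 4 of the 5 lower calls, without *Sync*. *Synm* had 55 to 148 reads per library, and no other of the 10 genes had under 675.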
